A study of Bombyx mori with 2 samples.

Results

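The genes described here are 5 silkworm gene models whose best BLAST hit is an osiris protein: osiris 7 (*BGIBMGA000044*), osiris 9 (*BGIBMGA000010*), osiris 18 (*BGIBMGA000006*), osiris 19 (*BGIBMGA010716*) and osiris 20 (*BGIBMGA010717*). They were taken from the BLAST names of the 12376 gene models with an expression value, of which 6 carry the word osiris. The sixth, osiris 21 (*BGIBMGA013568*), is not one of the 5 genes and is described apart from them. Membership was chosen by these names, and the 5 genes were proposed for study with their FPKM in both strains already known, so their levels are given as a description and support nothing beyond it.

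Osiris genes are an insect-specific family. Most of them lie side by side in insect genomes, in an order that is largely kept between species. They encode small proteins with a signal peptide and a shared domain of unknown biochemical function. In *Drosophila* they are expressed mainly in epithelia that secrete cuticle, such as the epidermis and the trachea, and several of their proteins have been found in endosomes. The cuticle is shed at each larval molt under the control of the steroid hormone 20-hydroxyecdysone, and the epidermis secretes the new cuticle before the old one is cast off.

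Digital gene expression (DGE) libraries were made from heads of *Bombyx mori* larvae in the pre-molting stage of the 2nd instar. One library came from the *nm2* mutant and the other from the wildtype strain C603, in which the mutant arose, and each was a pool of 6 larvae. The *nm2* mutant has part of the reading frame of *BmCPG10*, a cuticular protein gene, deleted. It does not molt in the 2nd instar and dies as a larva. The hours within the pre-molting stage are not given in the sources used here. The purpose of the comparison was to find the genes affected in the mutant.

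The *nm2* library held 12900347 clean reads and the wildtype library 12912619, of which 60.12% and 55.48% aligned to genes. Levels are FPKM, fragment counts scaled to transcript length and library size, so they are per length and can be set side by side between genes. *BmCPG10* (*BGIBMGA002602*) had 278 FPKM in the *nm2* mutant and 117 FPKM in the wildtype, a ratio of 2.37, and a level over a whole gene model does not check a deletion inside it. By qRT-PCR with primers outside the deletion, the paper also found *BmCPG10* higher in the *nm2* mutant. The 3 housekeeping genes had *nm2* to wildtype ratios of 0.897 (*RPL3*), 0.849 (*GAPDH*) and 1.17 (*BmActin3*). All 6 opsin models, the visual pigments of photoreceptors, stayed below 5 FPKM in both libraries, summing to 8.49 FPKM in the *nm2* mutant and 7.40 FPKM in the wildtype. Of 23 odorant-binding and chemosensory proteins, which are typical of heads with their antennae and mouthparts, 15 reached 5 FPKM.

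Because each strain had a single library, no test between strains could be made and none of the differences has a replicate library. The paper measured some of the genes named below by qRT-PCR, but lists no osiris gene among them. A gene was counted as lower or higher in the *nm2* mutant when it reached 5 FPKM in a library and log2((*nm2* + 1)/(wildtype + 1)) was at or beyond 1 in size. For genes with a listed coding length, reads were recovered from FPKM and length, and ratios have 95% intervals from an exact conditional binomial. These intervals, the Poisson intervals of levels and the floor of 3 reads for a gene at 0 cover counting error only. The library totals used to recover reads lie below the numbers of reads aligned to genes. Reads given below are therefore recovered reads on that scale and may not equal the sequenced reads.

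The 5 osiris genes were nearly absent from the *nm2* library and well expressed in the wildtype library. All 5 were counted as lower, where the background share of genes counted as lower was 15.0% of 9158 genes that reached 5 FPKM. The 5 genes reached it through the wildtype library alone, and nothing is read from their count. Together they summed to 6.06 FPKM in the *nm2* mutant and 3742 FPKM in the wildtype. That is 0.000512% of the summed FPKM of all *nm2* genes and 0.325% of that of the wildtype. In recovered reads, the 5 genes held 18 *nm2* reads and 9930 wildtype reads. Heads are a mixture of tissues, so fewer cells of a type and less RNA per cell cannot be told apart.

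Osiris 9, a gene whose *Drosophila* counterpart acts in the embryonic trachea, had 2.51 FPKM in the *nm2* mutant and 2675 FPKM in the wildtype. These levels stand for 7 reads and 6923 reads, and the *nm2* level was 1066-fold lower (95% counting interval 517 to 2653). Its log2 difference of -9.57 was the fifth strongest decrease among all 9158 genes, at rank 5.

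Osiris 7 was listed at 0 in the *nm2* mutant and had 438 FPKM in the wildtype, or 1237 reads. The floor of 3 reads in the *nm2* library equals 0.984 FPKM for this gene, and against it the level was at least 445-fold lower. The counting interval of the ratio reaches a smaller fold, 361. The log2 difference of osiris 7 was -8.78 (rank 6) with the pseudocount of 1 FPKM, and -7.79 with the 0 replaced by the floor.

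Osiris 19, also studied in the *Drosophila* trachea, had 2.34 FPKM in the *nm2* mutant and 531 FPKM in the wildtype. With 7 and 1470 reads the *nm2* level was 227-fold lower (110 to 564), a log2 difference of -7.32 at rank 15. The 3 members with the highest wildtype levels had the 3 largest log2 decreases. With almost no *nm2* reads for any member, this order largely follows from the wildtype levels and is not read further.

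Osiris 18 had 0.63 FPKM in the *nm2* mutant and 60.1 FPKM in the wildtype, from 2 and 176 reads. Its *nm2* level was 95.4-fold lower, with a wide counting interval of 25.9 to 790, and its log2 difference of -5.23 stood at rank 75. Osiris 20 had 0.58 FPKM in the *nm2* mutant and 38.9 FPKM in the wildtype, from 2 and 124 reads. Its *nm2* level was 67.0-fold lower (18.1 to 558), with a log2 difference of -4.66 at rank 103. For both genes a pseudocount of 1 FPKM lies above the *nm2* level, so the log2 difference is smaller than the ratio of the levels.

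**Figure D1:**
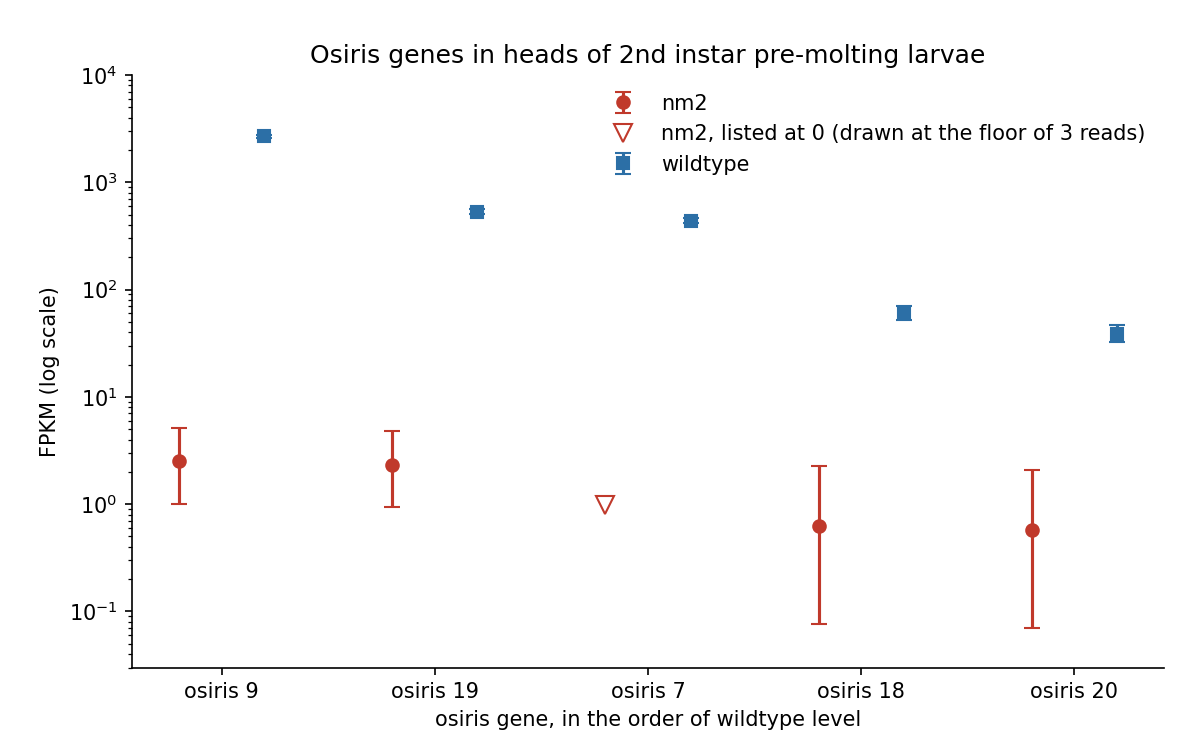
Level of each osiris gene in the *nm2* library (circles) and the wildtype library (squares), in FPKM on a log scale, with 95% Poisson counting intervals. Osiris 7, listed at 0 in the *nm2* mutant, is drawn as an open triangle at its floor of 0.984 FPKM, and every *nm2* value lies at or below 2.51 FPKM while the wildtype values run between 38.9 and 2675 FPKM.

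In the wildtype the 5 genes differed from each other by more than counting error. Their wildtype levels covered a 68.8-fold range, and osiris 9 alone held 71.5% of their sum. Osiris 9 was 5.04-fold above osiris 19 (4.76 to 5.33), and osiris 19 was 1.21-fold above osiris 7 (1.12 to 1.31). Osiris 7 was 7.29-fold above osiris 18 (6.21 to 8.58), and osiris 18 was 1.55-fold above osiris 20 (1.22 to 1.96). Among all gene models, the wildtype level of osiris 9 ranked 73, that of osiris 19 ranked 326, that of osiris 7 ranked 384, that of osiris 18 ranked 1899 and that of osiris 20 ranked 2756.

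In the *nm2* library the counting intervals of the members overlapped. They ran between 1.01 and 5.17 FPKM for osiris 9, between 0.942 and 4.83 FPKM for osiris 19, and up to 1.21 FPKM for osiris 7. They ran between 0.0767 and 2.29 FPKM for osiris 18 and between 0.0705 and 2.10 FPKM for osiris 20. At this depth the *nm2* levels of osiris 9 and osiris 20 could therefore not be put in order by their intervals, although their wildtype levels differed 68.8-fold. The coding lengths of the 5 genes lie between 723 and 882 bases, so 1 read is worth about the same FPKM in each of them, between 0.291 (osiris 20) and 0.358 FPKM (osiris 9) in the *nm2* library.

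Osiris 21, whose *Drosophila* counterpart acts in endosome and lysosome traffic of photoreceptors, was listed at 0 in the *nm2* mutant and at 0.75 FPKM in the wildtype. It did not reach 5 FPKM in a library and was not counted. No coding length is listed for it, so its reads and their interval are not given.

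The strength of the decrease set the 5 genes apart from most genes of the table, which is a description since they were proposed with these values known. The median log2 difference was -7.32 over the 5 genes, with osiris 7 at its floor or not, and -0.30 over the 9158 genes. A log2 difference at or below that of osiris 20, the weakest of the 5, was found in 103 genes, or 1.12%. A decrease of at least 4-fold was found in 436 genes, or 4.76%.

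For each member, the genes that were at least as high in the wildtype and no higher in the *nm2* mutant were counted. For osiris 9 there were 72 other genes at or above its wildtype level, and 0 of them were at or below 2.51 FPKM in the *nm2* mutant. For osiris 7 there were 383 such genes, and 1 of them was also listed at 0, hormone receptor 3 (*BGIBMGA009687*), a nuclear receptor that is induced by 20-hydroxyecdysone. For osiris 19 the count was 5 of 325 genes, for osiris 18 it was 27 of 1899 and for osiris 20 it was 36 of 2755. The limits of each count are the member's own levels, which were known when the genes were proposed. The counts are therefore a description only and do not rank the members.

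The wildtype level of osiris 20, 38.9 FPKM, was reached by 2756 genes, of which 75 (2.72%) were at or below 2.51 FPKM in the *nm2* mutant, the level of osiris 9. Besides the 5 members these were 70 genes. Of the 70, 33 had BLAST names without a described function, 4 were cuticular proteins, 2 were models of hormone receptor 3, and 4 lay between osiris 7 and osiris 18 in the order of genes on the chromosome.

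**Figure D2:**
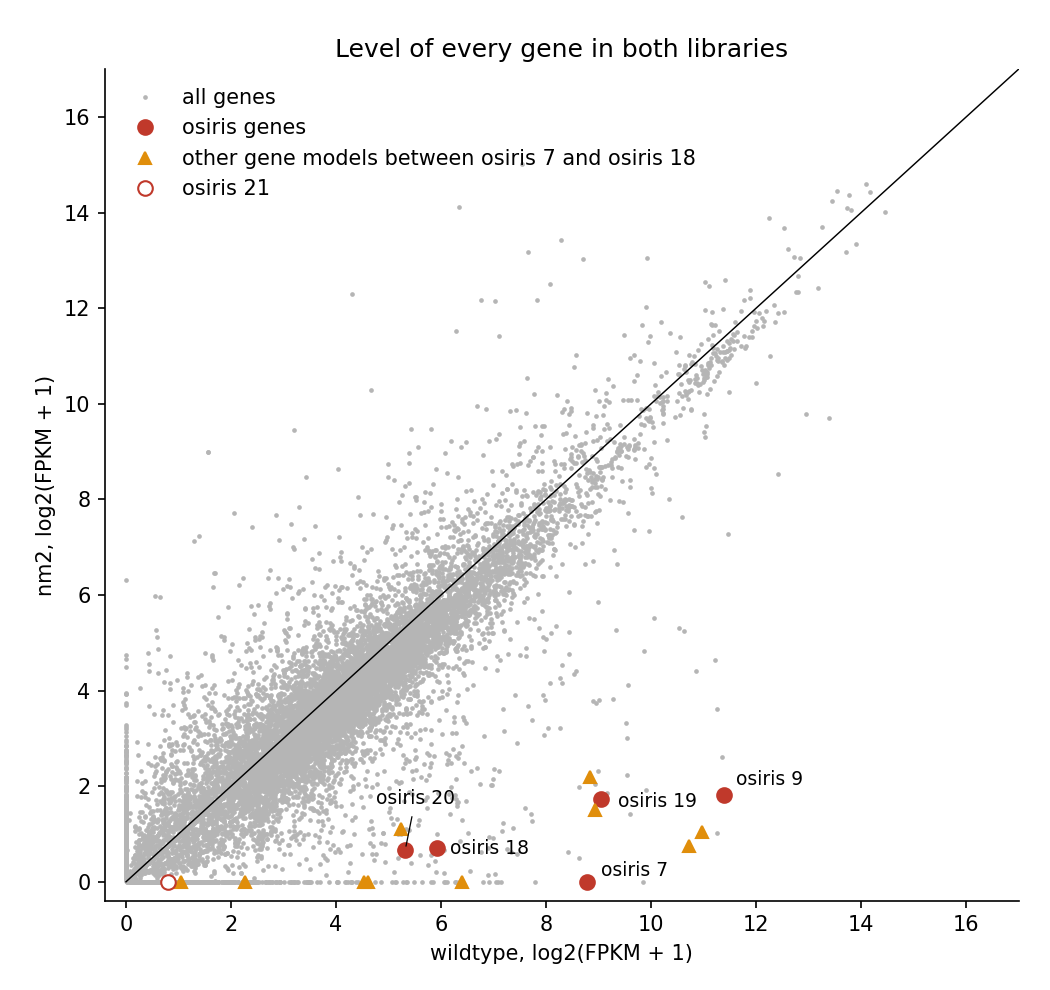
Level of every gene in the *nm2* library (vertical axis) against the wildtype library (horizontal axis), both as log2(FPKM + 1), with the line of equal levels. The 5 osiris genes (filled circles) lie at the lower edge at 2.51 FPKM or less in the *nm2* mutant, beside the other gene models between osiris 7 and osiris 18 (triangles), and osiris 21 (open circle) is near 0 in both libraries.

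The place of the members in the genome was read as the order of genes in RefSeq, which is on another assembly than the authors' gene models and was used for names and order only. Of the 12376 gene models, 6426 could be matched to a RefSeq gene. RefSeq holds 6 genes with an osiris symbol, and 5 of them, all members, are on the same chromosome. Osiris 20 and osiris 19 are adjacent there. After 212 further genes come osiris 7, osiris 9 and osiris 18, spread over a run of 21 RefSeq genes. Osiris 21 is on another chromosome.

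The genes that lie among osiris 7, osiris 9 and osiris 18 were low in the *nm2* mutant as well. Apart from the 3 osiris genes, 10 gene models were matched to this run, and all 10 had *nm2* levels below those of the wildtype. With no limit on low levels all 10 were at least 2-fold lower, a size found in 13.9% of the 12376 gene models, and 5 of them were at or below the log2 difference of osiris 20, which 0.832% of the gene models were. Of the 10, 8 reached 5 FPKM, all through the wildtype library alone, so that their direction was set by the limit and nothing is read from their count. The levels of all 10 summed to 8.32 FPKM in the *nm2* mutant and 4808 FPKM in the wildtype, and 5 of the 10 were listed at 0 in the *nm2* mutant. The median log2 difference of the 10 was -5.50.

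Between osiris 7 and osiris 9 lie 4 of these gene models, all uncharacterized proteins. Members were chosen by BLAST name alone, so whether uncharacterized proteins of this run belong to the osiris family was not tested. *BGIBMGA000013* had 3.60 FPKM in the *nm2* mutant and 456 FPKM in the wildtype, and was 127-fold lower (68.6 to 265). *BGIBMGA000045* had 1.07 FPKM in the *nm2* mutant and 2015 FPKM in the wildtype, and was 1883-fold lower (644 to 9134) from 3 reads in the mutant. *BGIBMGA000012* had 0.68 FPKM in the *nm2* mutant and 1680 FPKM in the wildtype, and was 2471-fold lower (972 to 9136). These last 2 gene models stood at ranks 3 and 2 of all decreases by log2 difference, ahead of osiris 9. *BGIBMGA000011* had 1.83 FPKM in the *nm2* mutant and 486 FPKM in the wildtype, and was 266-fold lower (113 to 818).

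Between osiris 9 and osiris 18 the wildtype levels were lower. *BGIBMGA000051*, an uncharacterized protein, was listed at 0 in the *nm2* mutant and had 83.2 FPKM in the wildtype, at least 80.1-fold lower against the floor of 3 reads, with a lower counting bound of 64.6-fold. *BGIBMGA000047*, also uncharacterized, was at 0 in the *nm2* mutant and at 23.3 FPKM in the wildtype, at least 15.8-fold lower, with a lower counting bound of 12.3-fold. *BGIBMGA000052* is named for one cut domain proteins, a family of DNA-binding transcription factors. It was at 0 in the *nm2* mutant and at 22.2 FPKM in the wildtype. *BGIBMGA000054*, uncharacterized, had 1.14 FPKM in the *nm2* mutant and 36.8 FPKM in the wildtype, and was 32.3-fold lower (16.2 to 75.8). The other gene models of this stretch, *BGIBMGA000046* and *BGIBMGA000050*, were at 0 in the *nm2* mutant and at 3.79 and 1.08 FPKM in the wildtype, below the limit for counting.

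Outside this run few gene models were matched. Before osiris 7, neither of the 2 gene models matched within 10 places reached 5 FPKM, so where the low genes begin on that side was not measured. *BGIBMGA000043*, a hypothetical protein without a RefSeq match and so without a place in this order, was at 0 in the *nm2* mutant and at 18.6 FPKM in the wildtype, and is named here after its values were seen. Of the 4 matched within 10 places after osiris 18, 0 were lower and 1 was higher, where 15.0% of all genes were lower and 8.83% higher. The higher one, *BGIBMGA000004*, carries the RefSeq symbol of a cytochrome P450, CYP340C1, and had 18.6 FPKM in the *nm2* mutant and 7.37 FPKM in the wildtype. It lies 3 places after osiris 18, with no matched gene model in between, so the end of the run of low genes on this side cannot be placed more closely. A further gene model after it, fumarylacetoacetase (*BGIBMGA000062*), an enzyme of tyrosine breakdown, had 159 FPKM in the *nm2* mutant and 155 FPKM in the wildtype.

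Around osiris 20 and osiris 19 the matched neighbours did not share the decrease in size. The gene model next to osiris 20, an equilibrative nucleoside transporter (*BGIBMGA010837*), had 20.9 FPKM in the *nm2* mutant and 21.4 FPKM in the wildtype. Within 10 places before osiris 20, 1 of 4 gene models at 5 FPKM or more was lower, and within 10 places after osiris 19 it was 1 of 2. The share over all genes was 15.0%. The nearest matched gene model after osiris 19 lies 7 places away, so the genes directly after it were not measured. Over both places on this chromosome, the 10 flanking gene models that were matched and at 5 FPKM or more had log2 differences between -1.21 and 1.23, with a median of -0.04. Around osiris 21, 0 of 6 gene models before it were lower and 2 of 3 after it.

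**Figure D3:**
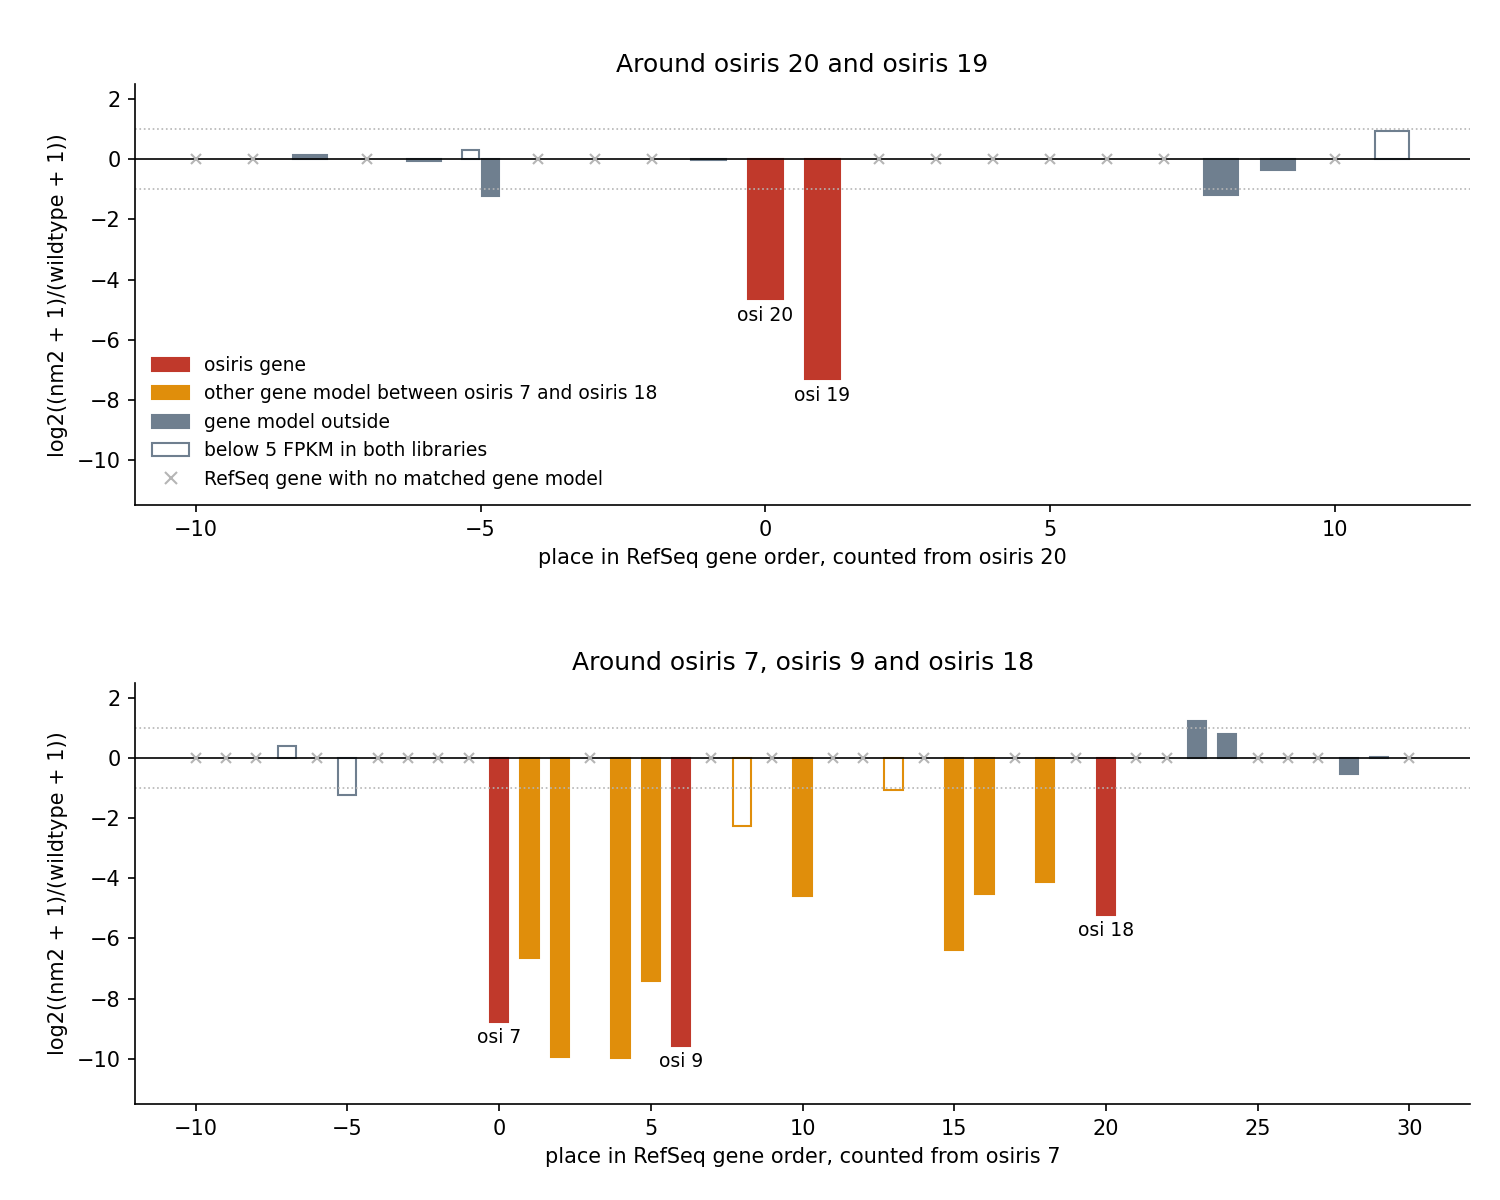
Log2 difference between the *nm2* mutant and the wildtype for gene models in the order of RefSeq genes around osiris 20 and osiris 19 (top) and around osiris 7, osiris 9 and osiris 18 (bottom). The gene models between osiris 7 and osiris 18 at 5 FPKM or more (filled bars) lie between -9.97 and -4.14, while the matched flanking ones at 5 FPKM or more, none of them just before osiris 7, lie between -1.21 and 1.23, and crosses mark RefSeq genes without a matched gene model.

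The genes most like each member were found as the shortest distance between points of log2(FPKM + 1) in the *nm2* and wildtype libraries, so likeness rests on 2 libraries. For osiris 9 they were an uncharacterized protein (*BGIBMGA006730*), at 1.03 FPKM in the *nm2* mutant and 2455 FPKM in the wildtype, and urbain (*BGIBMGA008287*). For osiris 19 they were a somatomedin-B and thrombospondin domain protein (*BGIBMGA013042*), at 2.61 FPKM in the *nm2* mutant and 571 FPKM in the wildtype, and *BGIBMGA000011*, which lies beside osiris 9. For osiris 20 the pair held an uncharacterized protein (*BGIBMGA013770*) and an RR-2 cuticular protein (*BGIBMGA000438*), at 0.41 FPKM in the *nm2* mutant and 35.1 FPKM in the wildtype. The pairs of osiris 18 (*BGIBMGA007474* and *BGIBMGA010610*) and osiris 7 (*BGIBMGA008346* and *BGIBMGA006288*) were uncharacterized proteins. The distances were between 0.0189 and 0.801 on the log2 scale.

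Cuticular proteins, the structural proteins that the epidermis lays down with chitin, differed in both directions. Of 82 cuticular proteins at 5 FPKM or more, 26 were lower and 40 were higher in the *nm2* mutant, where 15.0% of all genes were lower and 8.83% higher. The median log2 difference of the 82 was 0.95. The levels of all 146 cuticular gene models, with no limit, summed to 120584 FPKM in the *nm2* mutant and 42260 FPKM in the wildtype. At or below the log2 difference of osiris 20 were 9 of the 82 (11.0%), against 1.12% of all genes. A cuticular protein named in the table as putative (*BGIBMGA005259*) had 11.2 FPKM in the *nm2* mutant and 2438 FPKM in the wildtype, whereas another (*BGIBMGA005277*) had 32990 FPKM in the *nm2* mutant and 185 FPKM in the wildtype. By qRT-PCR the paper also found *BGIBMGA005277* higher in the *nm2* mutant, but by a much smaller ratio.

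The cuticular protein families differed in their counts, which are read against the same 15.0% lower and 8.83% higher of all genes. Of 21 RR-1 proteins, named after a form of the chitin-binding Rebers and Riddiford motif typical of soft cuticle, 5 were lower and 13 higher, with a median log2 difference of 2.11. One RR-1 protein (*BGIBMGA002548*) had 5014 FPKM in the *nm2* mutant and 18.8 FPKM in the wildtype, and another RR-1 protein (*BGIBMGA000328*) had 4637 FPKM in the *nm2* mutant and 108 FPKM in the wildtype. The paper's qRT-PCR also gave a higher *nm2* level for *BGIBMGA002548*, but by a much smaller ratio. Of 12 RR-2 proteins, which are typical of hard cuticle, 6 were lower and 5 higher, with a median of -0.35. One RR-2 protein (*BGIBMGA013915*) was at 0 in the *nm2* mutant and 39.6 FPKM in the wildtype, while another RR-2 protein (*BGIBMGA000249*) had 499 FPKM in the *nm2* mutant and 40.8 FPKM in the wildtype. Of 26 glycine-rich, hypothetical and tweedle cuticular proteins 9 were lower and 14 higher. A hypothetical cuticular protein (*BGIBMGA004780*) was at 0 in the *nm2* mutant and 120 FPKM in the wildtype, and a further one was listed for 2 gene models (*BGIBMGA011767* and *BGIBMGA014293*) with the same values, 511 FPKM in the *nm2* mutant and 1.96 FPKM in the wildtype, so reads of these copies cannot be told apart.

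Enzymes that digest the old cuticle or tan the new one are read against the same 15.0% lower and 8.83% higher of all genes. Counts of lower genes depend on the scaling, with 929 over all genes in place of 1371 when the median ratio was set to 0. Of 16 chitinases and beta-N-acetylglucosaminidases, which break down chitin, 9 were lower and 0 higher, with a median log2 difference of -1.20. The lower ones nearest the limit had log2 differences of -1.18, -1.22 and -1.27. A chitinase (*BGIBMGA008709*) had 6.99 FPKM in the *nm2* mutant and 748 FPKM in the wildtype, and a second one (*BGIBMGA010240*) had 3.39 FPKM in the *nm2* mutant and 462 FPKM in the wildtype. By qRT-PCR the paper also found *BGIBMGA010240* lower in the *nm2* mutant, though to a smaller extent. Of 17 tanning enzymes and yellow proteins 8 were lower and 3 higher, with a median of -0.91. An alpha-methyldopa hypersensitive protein (*BGIBMGA002958*), whose *Drosophila* counterpart is needed for cuticle cross-linking, was at 0 in the *nm2* mutant and 131 FPKM in the wildtype. Laccase 2A (*BGIBMGA006745*), an oxidase of cuticle tanning, had 0.71 FPKM in the *nm2* mutant and 14.4 FPKM in the wildtype. Of 3 chitin synthases and chitin deacetylases 2 were lower and 1 was higher. Chitin synthase A (*BGIBMGA002963*), the epidermal chitin synthase, had 19.1 FPKM in the *nm2* mutant and 41.0 FPKM in the wildtype. Its log2 difference of -1.06 also lay near the limit. Chitin synthase B (*BGIBMGA002960*), that of the midgut, had 20.2 FPKM in the *nm2* mutant and 8.00 FPKM in the wildtype.

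Among the 19 gene models of early ecdysone and nuclear receptor genes that the list drew by BLAST name, 4 were lower and 3 higher. Over all genes 15.0% were lower and 8.83% higher. The median log2 difference of this list was -0.08, and 0.35 when the median ratio of all genes was set to 0. At that setting 9328 genes reached 5 FPKM in place of 9158, so the list need not hold the same 19 gene models. The strongest decreases were those of hormone receptor 3 (*BGIBMGA009687*), at 0 in the *nm2* mutant and 921 FPKM in the wildtype, and hormone receptor 3C (*BGIBMGA009688*), at 1.67 FPKM in the *nm2* mutant and 773 FPKM in the wildtype. Both were past the log2 difference of osiris 20. The list does not hold every gene model with a receptor name, and 3 others are named here after their values were seen. Those named nuclear receptor GRF had 0 (*BGIBMGA007887*) and 0.47 FPKM (*BGIBMGA007888*) in the *nm2* mutant and 56.3 and 55.3 FPKM in the wildtype, and both were also past osiris 20. One named nuclear hormone receptor (*BGIBMGA000716*) had 9.12 FPKM in the *nm2* mutant and 1.5 FPKM in the wildtype. The paper lists *BGIBMGA000716* as *FTZ-F1* and *BGIBMGA007888* as *HR4*, receptors of the ecdysone pathway, so the list median does not cover the whole pathway. The paper's qRT-PCR gave the same directions for *BGIBMGA000716*, *BGIBMGA007888* and *BGIBMGA009688*. Ecdysone-inducible transcription factor E74 (*BGIBMGA007968*) had 1.47 FPKM in the *nm2* mutant and 13.4 FPKM in the wildtype. A gene model whose BLAST hit is named as the Z4 isoform of Broad-Complex (*BGIBMGA009908*), a transcription factor of metamorphosis, had 8.46 FPKM in the *nm2* mutant and was listed at 0 in the wildtype.

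Rab GTPases, which direct traffic between endosomes and other membranes, had smaller differences than the osiris genes. Of 19 Rab gene models 5 were lower and 1 higher, with a median log2 difference of -0.52, where 15.0% of all genes were lower and 8.83% higher. When the median ratio of all genes was set to 0, 1 Rab gene model was lower, and 929 of 9328 genes were lower over all genes. Rab7 (*BGIBMGA007712*), a marker of late endosomes, had 77.5 FPKM in the *nm2* mutant and 164 FPKM in the wildtype. None of the Rab genes was as strongly decreased as osiris 20.

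**Figure D4:**
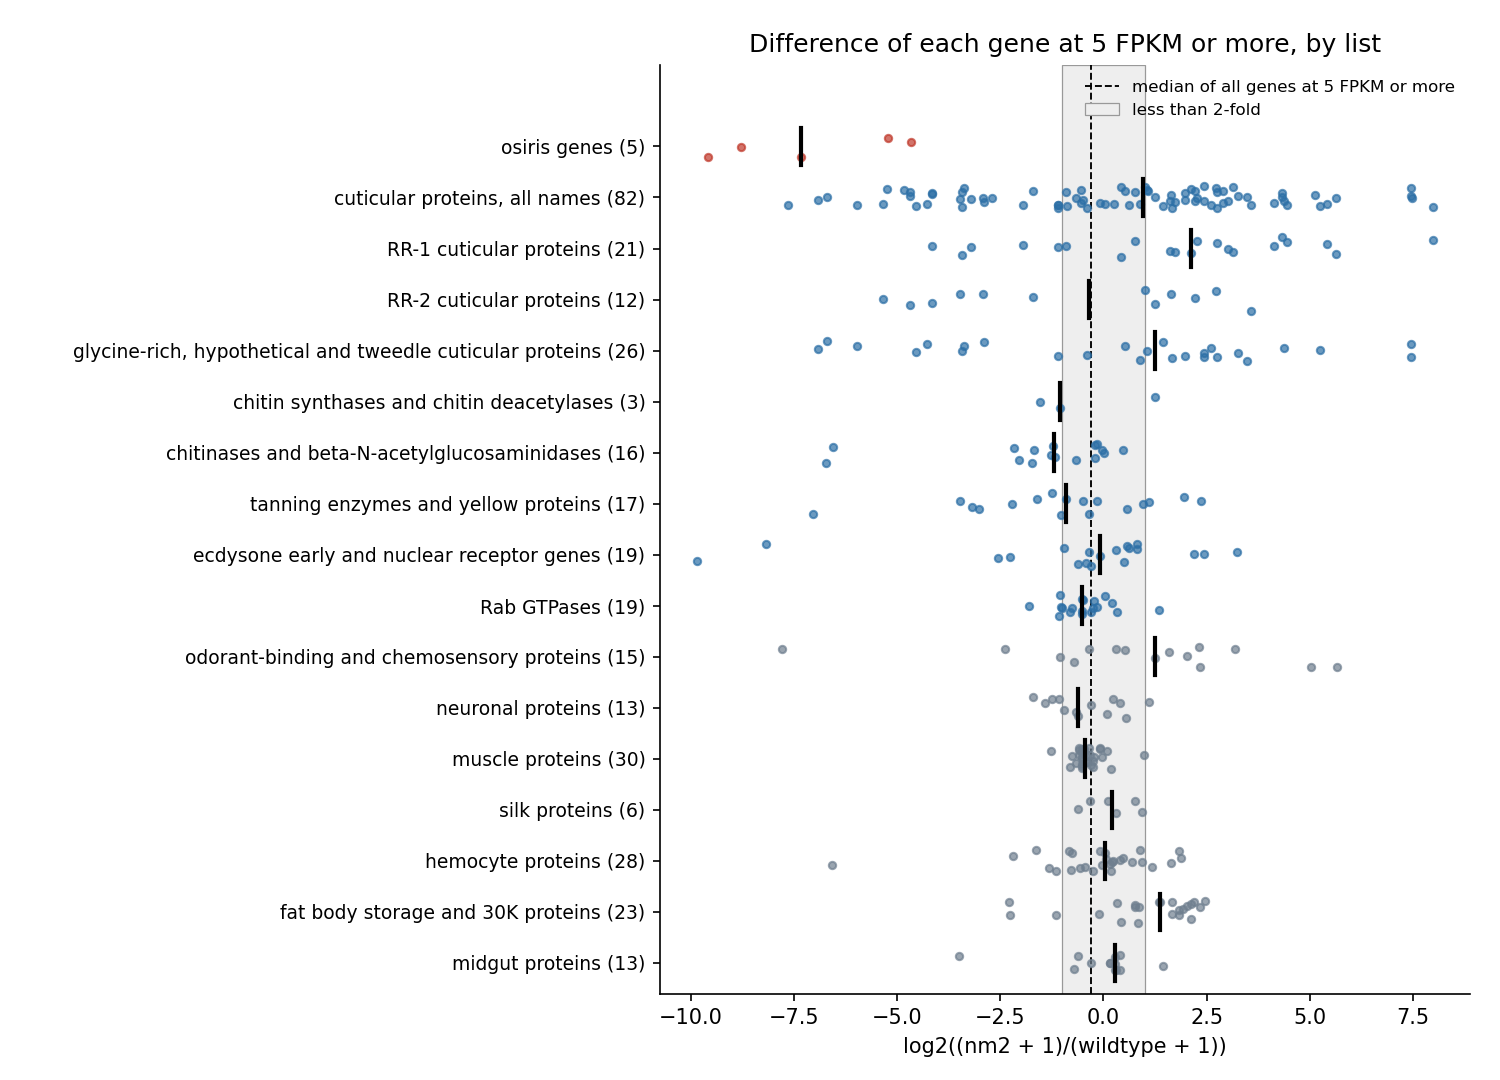
Log2 difference between the *nm2* mutant and the wildtype of each gene at 5 FPKM or more, by list (number of genes in brackets), with list medians as black bars and the median of all such genes, -0.30, as a dashed line. The 5 osiris genes lie between -9.57 and -4.66, while the cuticular proteins spread between -7.64 and 7.98.

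Lists of markers of other tissues in the head samples had median log2 differences between -0.62 (neuronal proteins) and 1.36 (fat body proteins). Their counts are read against 15.0% lower and 8.83% higher of all genes at 5 FPKM or more. Of 30 muscle genes at 5 FPKM or more, 1 was lower and 0 higher. All 33 muscle gene models summed to 33464 FPKM in the *nm2* mutant and 47536 FPKM in the wildtype, with 0 of them at 0 in either library. Of 23 fat body storage and 30K proteins at 5 FPKM or more, 3 were lower and 13 higher. All 37 gene models of this list summed to 36126 FPKM in the *nm2* mutant and 14405 FPKM in the wildtype. Of the 37, 4 were at 0 in *nm2* heads and 6 in wildtype heads. The 6 silk genes at 5 FPKM or more had 0 lower and 0 higher. Of 13 neuronal genes 4 were lower and 1 higher, of 28 hemocyte genes 5 were lower and 4 higher, and of 13 midgut genes 1 was lower and 1 higher. Of 15 odorant-binding and chemosensory proteins 3 were lower and 8 higher. The part of these shifts in the osiris levels was not tested.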

How the data were processed

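The authors filtered the reads, aligned them to the silkworm gene set of SilkDB, estimated abundance with RSEM and deposited an FPKM value per gene for each library. Clean read counts and the percent of reads aligned to genes were taken from the authors' mapping table. Reads that fitted several places were 6.83% (*nm2*) and 4.67% (wildtype), and how they were shared between related genes was not tested. The authors' fold changes, P-values, FDR, GO and KEGG columns were not used.

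From these FPKM the difference between strains was taken as log2((*nm2* + 1)/(wildtype + 1)), whose pseudocount of 1 FPKM understates the change of low genes. Genes that reached 5 FPKM in either library (9158 of 12376) were counted at an absolute log2 value of 1. With 1 library per strain no test was run, and counts are read against those over all genes. Reads were recovered for the 1727 genes whose coding length is listed in the authors' table of changed genes. With 36 bases taken off the length, library totals of 4063000 (*nm2*) and 3768000 (wildtype) made 97.0% of 200 and 90.0% of 130 low values fall within 0.1 of a whole read. Both totals lie well below the reads aligned to genes, which were 60.12% (*nm2*) and 55.48% (wildtype) of the clean reads. The search did not extend to totals that high, and the gap was not resolved. The recovered totals serve as a scale for counting error only. The search was tested on simulated data with totals inside the searched range, so that test cannot show how it does above the range. RefSeq names and gene order came from assembly ASM3026992v2, matched by the accession (4672 gene models, and 1075 without its version) or gene ID (679) of the BLAST hit.

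The members, the 18 lists of BLAST names and the tests were chosen with earlier results of these data known. Named genes were the 5 members and osiris 21, genes reaching 5 FPKM between or up to 3 places outside osiris genes, the 2 genes nearest to each member, up to 4 per cuticle, ecdysone and endosome list with the largest difference, and the housekeeping genes. *BmCPG10*, the other gene models near the osiris genes, *BGIBMGA000043*, fumarylacetoacetase and 3 receptor gene models outside the lists were added after their values were seen. The list of zona pellucida and other apical matrix proteins found 0 gene models. A search for the osiris protein motif was not run. Alternatives were other scalings, pseudocounts, limits on low FPKM, a 4-fold limit and other bases off the length. The software was SciPy 1.17.1, pandas 2.3.3 and NumPy 2.4.6 in Python 3.11.15, with figures drawn in matplotlib 3.10.9.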

Additional observations from a re-analysis of the deposited data

How the results depend on the processing

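All 5 osiris genes were counted as lower under every scaling, pseudocount, low limit and the 4-fold limit tried. Rescaling moved their log2 differences by little, between -9.54 and -9.37 for osiris 9 and between -4.64 and -4.54 for osiris 20, while pseudocounts of 0.01 to 10 FPKM gave -15.4 to -5.48 for osiris 7, whose *nm2* level was 0, and -6.04 to -2.21 for osiris 20. Other bases off the length, 48 or 0, gave the same *nm2* reads. The 8 lower gene models between osiris 7 and osiris 18 were 8 or 10 in each setting, and these alternatives were chosen after seeing the data. Over all genes, 1371 were lower and 809 higher. A pseudocount of 10 FPKM gave 600 lower and 409 higher, a low limit of 20 FPKM gave 816 and 502, and a 4-fold limit gave 436 lower. With the median ratio set to 0, 44.7% of the counted genes were lower, 929 against 1151 higher, in place of 62.9%. Among values of single genes and lists, 533 stayed within counting error, within 1.5 times (counts) or equal to 3 digits (medians), 336 moved, most often at a pseudocount of 10 FPKM, and 0 turned a called direction. Among the headline results, tallied apart, 51 stayed and 5 moved. Fewer genes pass a stricter limit by construction.

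No replicate was left out, since each strain has 1 library. No paired analysis was possible because each strain has 1 pool of larvae. Depth limits the *nm2* levels of the osiris genes, which rest on 0 to 7 recovered reads.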
